A study of Mus musculus with 6 samples.

Results

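Toll-like receptors are membrane proteins of the innate immune system that recognise conserved molecules of microbes. The 10 mouse genes Tlr1 to Tlr9 and Tlr13 were picked out by their gene symbols from the 55421 genes measured in the cerebral cortex, and each symbol matched 1 gene. RNA came from 6 male C57BL/6J mice with no transgene or treatment, 3 aged 6 months (mice 10, 11 and 17) and 3 aged 24 months (mice 2, 4 and 5). All mice were anaesthetised with isoflurane before cervical dislocation, and mice with visible tumours in a major organ had been left out of the study. The whole microdissected cortex was powdered, so each library mixes neurons, glia, vessels and any blood left in them.

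Some of these receptors sit at the cell surface and bind components of bacterial walls or flagella, while others sit in endosomes and bind nucleic acids. Binding brings 2 receptor chains together, and adaptor proteins such as Myd88 and Ticam1 then pass the signal through kinases to NF-kB and interferon regulatory factors, which turn on cytokine genes. In the brain, microglia, the resident macrophages, are the best known source of most Toll-like receptors, and Tlr3 is also found in astrocytes and neurons. The comparison of 24 with 6 months asks whether the transcripts of this first line of sensing differ with age in the cortex.

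Libraries were made with an unstranded low-input kit from 10 ng of RNA. The deposited counts summed to between 29495379 and 36494240 per mouse, and the number of genes with any count was 33974 to 35651 at 6 months and 40208 to 43561 at 24 months. Levels are given as the authors' TPM (transcript counts scaled for gene length and library), which divide by gene length and allow genes to be set side by side. Differences between ages come from edgeR's quasi-likelihood test on the counts. The counts were scaled by TMM factors, which set the libraries level on the bulk of the genes and not on the totals. These factors were 0.921 to 0.946 at 6 months and 1.04 to 1.10 at 24 months, so a difference in TPM looks more positive than the fitted one. Log2 fold changes are for 24 against 6 months, and their median over the 32905 genes tested was 0.15.

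The cell surface receptors are encoded on 4 chromosomes of the mouse genome (GRCm38, positions from GENCODE vM21). Tlr1 (chr5:64924679-64933563) and Tlr6 (chr5:64952031-64960097), which each pair with Tlr2 to bind bacterial lipopeptides, are neighbours on the minus strand of chromosome 5. Tlr2 itself is at chr3:83836272-83841767 on the minus strand. Tlr4, the receptor for bacterial lipopolysaccharide, is at chr4:66827584-66930284 on the plus strand. Tlr5, the flagellin receptor, is at chr1:182954788-182976044 on the plus strand. Among the endosomal receptors, Tlr3 binds double-stranded RNA and is at chr8:45395665-45411080 on the minus strand. Tlr7 (chrX:167304929-167330558) and Tlr8 (chrX:167242696-167264329) recognise single-stranded RNA or its breakdown products and lie side by side on the minus strand of the X chromosome. Tlr9, which binds DNA with unmethylated CpG, is at chr9:106222598-106226883 on the plus strand. Tlr13, which mice have and humans lack, detects bacterial ribosomal RNA and is at chrX:106143204-106160493 on the plus strand.

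Reads cannot always tell Tlr1 from Tlr6, so the longest stretch that both transcripts share is shown here. It is 229 bases long, lies within 1 coding exon of each gene, and is found at chr5:64925537-64925765 in Tlr1 and at chr5:64953828-64954056 in Tlr6 (GRCm38, both on the minus strand, 5′ to 3′).
Tlr1 and Tlr6 shared run: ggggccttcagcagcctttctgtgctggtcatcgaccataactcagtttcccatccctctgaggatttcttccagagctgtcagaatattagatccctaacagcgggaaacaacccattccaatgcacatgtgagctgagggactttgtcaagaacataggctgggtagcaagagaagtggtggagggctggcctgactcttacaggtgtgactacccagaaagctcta
A read of 75 bases keeps at most 69 after the stated trimming. In all, 364 of the 69-base windows were shared by the pair, which is 11.0% of the windows of Tlr1 and 9.88% of those of Tlr6. None of the other pairs among the 10 genes shared a window (1 of 45 pairs did). Counting set a minimum mapping quality, which reads with several positions often miss, so the counts of Tlr1 and Tlr6 are uncertain over this stretch. One more overlap bears on the counts. Exons of Gm45542 on the opposite strand cover 381 of the 5207 exonic bases of Tlr3 (7.32%), and reads of the pair cannot be told apart there.

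Tlr3 was the most abundant of the 10 transcripts in every library. Its TPM was 9.19, 8.37 and 8.74 in the 6-month mice 10, 11 and 17, and 5.98, 10.2 and 11.5 in the 24-month mice 2, 4 and 5. It made up between 36.5% and 52.4% of the summed TPM of the 10 genes. Its mean over all mice ranked 10067th of the 55421 genes. The order of mean TPM below it was Tlr13 (2.64), Tlr7 (2.22), Tlr2 (1.34), Tlr4 (1.30), Tlr6 (0.790), Tlr1 (0.557), Tlr9 (0.550), Tlr5 (0.316) and Tlr8 (0.102). Only 2 steps of this order were wider than the spread over libraries, from Tlr3 to Tlr13 and from Tlr7 to Tlr2. All other neighbours overlapped in their ranges, and Tlr2 was above Tlr4 in only 3 of 6 libraries. The endosomal receptors summed to 13.6 ± 0.525 TPM (SD, n = 3) at 6 months and 15.4 ± 3.51 at 24 months. The surface receptors summed to 3.66 ± 0.462 and 4.94 ± 0.256 TPM.

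**Figure D1:**
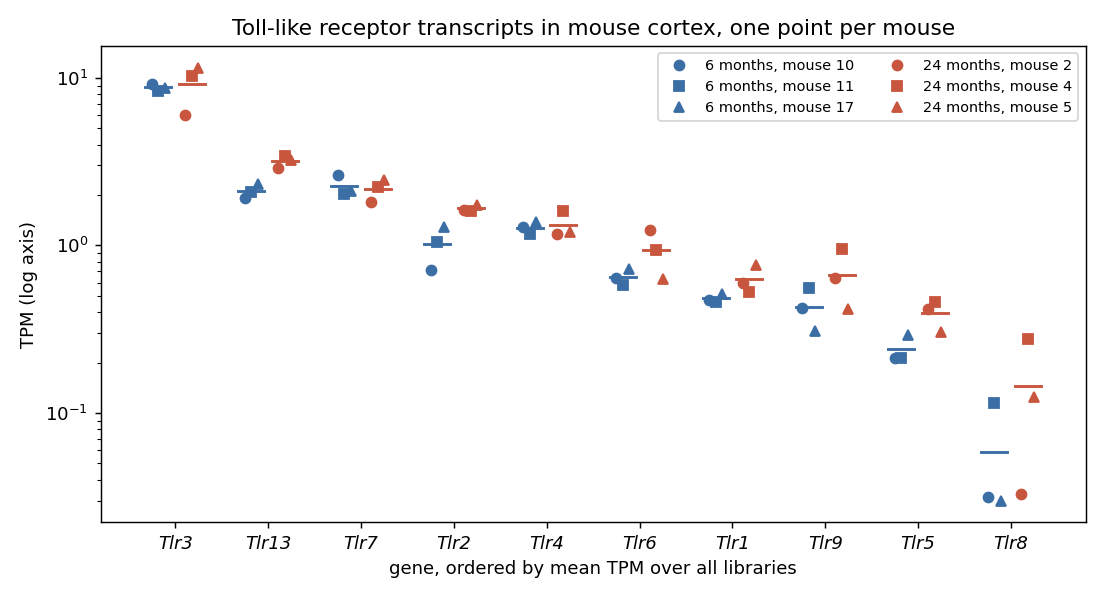
TPM of each Toll-like receptor gene (log axis) in the 3 mice of 6 months (blue) and the 3 mice of 24 months (red), 1 point per mouse, with a bar at the mean of each age. Tlr3 lies above all others in every mouse, and the points of the 2 ages are apart for Tlr13 and Tlr2 and, by a narrow gap that closes in scaled CPM, for Tlr1 and Tlr5.

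The lowest members were close to what silent genes reach in these libraries. Genes of olfactory, vomeronasal, taste and trace amine receptors (1543 genes), which have little or no use in cortex, gave 0.0223, 0.0239 and 0.0250 scaled CPM (counts scaled for library size) per exonic kb in the 6-month mice 10, 11 and 17. The same genes gave 0.0857, 0.0719 and 0.0531 in the 24-month mice 2, 4 and 5, on average 2.96 times as much. Tlr8 was under the level of its own library in 4 of 6 libraries. Tlr5 was 2.53 to 3.32 times above it at 6 months and 1.28 to 1.68 times at 24 months. Tlr1, Tlr6 and Tlr9 were 1.83 to 3.80 times above it at 24 months. Tlr3 was 18.3 to 56.9 times and Tlr13 8.86 to 15.9 times above it at that age. This level thus moved with age beside every low value below.

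**Figure D2:**
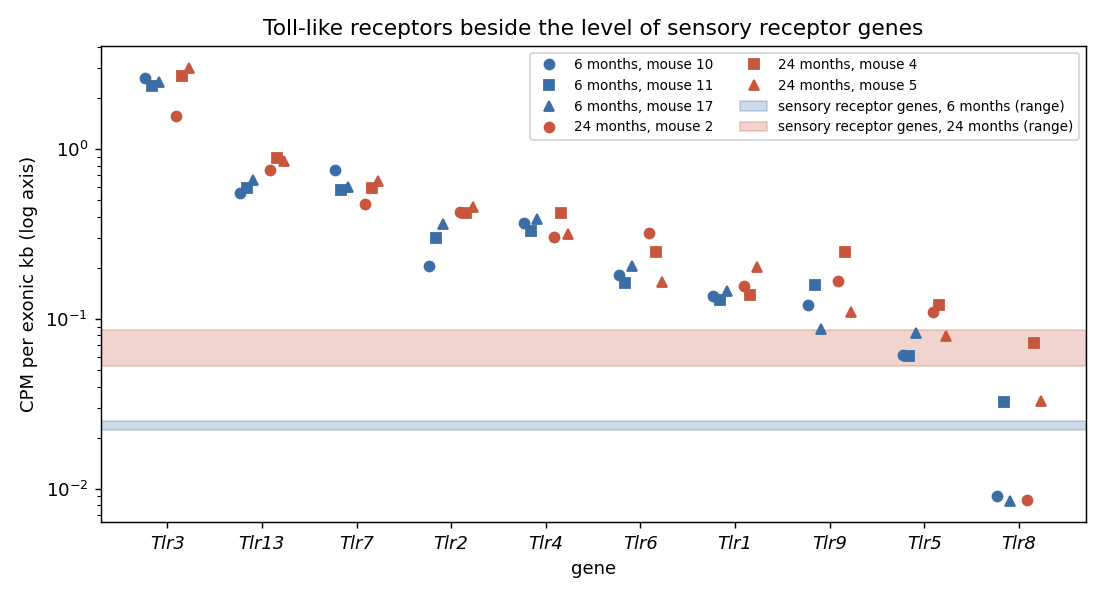
CPM per exonic kb of each Toll-like receptor gene (log axis) in each mouse, beside bands that span the 3 libraries of each age for the sensory receptor genes (blue 6 months, red 24 months). The red band lies above the blue one, Tlr8 lies under the band of its own age in 4 of 6 mice, and Tlr3, Tlr13 and Tlr7 lie far above them.

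No Toll-like receptor passed the 1% false discovery rate (FDR) used by the study (0 of 10 in edgeR's quasi-likelihood test, where 0% of all genes passed). The likelihood ratio test of edgeR and the Wald test of DESeq2 also called 0 of the 10 at 1% FDR, and they called 5.18% and 1.30% of their genes. At 10% FDR, 1 member, Tlr13, was called higher at 24 months, and 10.0% of all genes were (18.4% in either direction). At an unadjusted p under 0.05 there were 2 members, Tlr13 and Tlr2, both higher, against 17.6% of all genes. These were also the 2 members whose 24-month mice all lay above the 6-month mice in scaled CPM, which 20.0% of all genes did. None of the 10 had all its 24-month mice below, where 16.2% of all genes did. The counts of called members were thus near the share over all genes. The median log2 fold change of the 10 was 0.44, beside 0.15 over all genes. Of the 10, 7 were above 0, as were 19232 of the 32905 genes tested. When the counts were scaled by library totals alone, all 10 were above 0, and the medians were 0.64 and 0.33. With the sensory receptor level subtracted, 2 of 5 surface receptors were above 0 (median -0.21). Of the 4 endosomal receptors tested there, 2 were above 0 (median 0.0055). The median of all genes under the subtraction was not computed.

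Tlr13 showed the smallest p. It was counted 73, 88 and 93 times in the 6-month mice 10, 11 and 17, and 106, 133 and 124 times in the 24-month mice 2, 4 and 5. All 24-month mice were above all 6-month mice. The mean level was 2.11 ± 0.202 TPM (SD, n = 3) at 6 months and 3.17 ± 0.257 at 24 months. Its fitted log2 fold change was 0.47 with a standard error of 0.17, a 1.39-fold higher scaled count (edgeR quasi-likelihood, adjusted p = 0.0982). The call at 10% FDR was lost with each mouse left out in turn (adjusted p between 0.121 and 0.248) and with the sensory receptor level subtracted (0.204). It was also lost with no filter on low counts and in DESeq2. The log2 fold change stayed between 0.41 and 0.66 in the 13 alternatives. The share of all genes called at 10% FDR moved as well. It was 8.17% with no filter, 7.30% with the subtraction and 12.8% in DESeq2. Leaving out mouse 10 (6 months) or mouse 4 (24 months) brought it to 0%, and leaving out mouse 11 (6 months) to 0.00312%. It was 7.72% with mouse 17 (6 months) left out, 0.585% with mouse 2 and 25.6% with mouse 5 (24 months).

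Tlr2, the shared partner of Tlr1 and Tlr6, was counted 19, 31 and 36 times in the young mice and 42, 44 and 47 times in the old. The ages did not overlap, and the 6-month mouse 10 was the lowest. In TPM it measured 1.02 ± 0.287 and 1.66 ± 0.0726 (SD, n = 3). The log2 fold change was 0.59 with a standard error of 0.25, which did not pass 10% FDR (edgeR quasi-likelihood, adjusted p = 0.149). Scaled by library totals alone, it did (adjusted p = 0.0986).

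Tlr1 and Tlr6 are the pair that shares sequence. Tlr1 was counted 14, 15 and 16 times in the young mice and 17, 16 and 23 times in the old, and the ages overlapped in scaled CPM. Tlr6 had 21, 21 and 25 counts and then 39, 32 and 21, with the 24-month mouse 5 among the 6-month mice. Their log2 fold changes were 0.27 and 0.42, each with a standard error of 0.30, and both were within about that spread of the median gene. For Tlr1 the direction turned to -0.21 with the sensory receptor level subtracted.

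Tlr4 and its partners for lipopolysaccharide showed no difference beyond the spread of the mice. Tlr4 was counted 63, 63 and 71 times at 6 months and 55, 81 and 60 times at 24 months, so the ages overlapped on both sides. Its log2 fold change was -0.06 with a standard error of 0.20 (edgeR quasi-likelihood, adjusted p = 0.874), and it was 0.14 with library totals. Tlr5 was counted 9, 10 and 13 times and then 17, 20 and 13 times. Its log2 fold change, 0.60 with a standard error of 0.34, did not pass 10% FDR (edgeR quasi-likelihood, adjusted p = 0.251) and turned to -0.43 once the sensory receptor level was subtracted.

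The remaining endosomal receptors spread in both directions. Tlr3 was counted 422, 425 and 423 times in the young mice, a narrow range, and 265, 483 and 536 times in the old, where mouse 2 was far below the other two. Its log2 fold change was -0.04 with a standard error of 0.21 (edgeR quasi-likelihood, adjusted p = 0.919), and 0.21 without the 24-month mouse 2. That library also had the lowest sums of oligodendrocyte markers (800 TPM against 1357 to 2484 in the others) and of endothelial markers (81.8 against 93.5 to 130.8). Whether the makeup of that piece of tissue bears on Tlr3 was not tested.

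Tlr7 was counted 95, 81 and 80 times at 6 months and 63, 83 and 90 times at 24 months. The ages overlapped, and its log2 fold change was -0.17 with a standard error of 0.20, or 0.02 with library totals. Tlr9 had 13, 19 and 10 counts and then 19, 30 and 13, again overlapping, with a log2 fold change of 0.52 and a standard error of 0.38. Tlr8 was counted 1, 4 and 1 times in the young mice and 1, 9 and 4 times in the old. At 6 and 14 counts per age, near the sensory receptor level, a difference of Tlr8 was not detectable at this depth. The ratio of its scaled counts was 2.26 with an exact 95% interval of 0.818 to 7.19, which covers counting error only. Single mice decided its size, since the fitted log2 fold change of 1.13 was 0.33 without mouse 4 (24 months) and 2.04 without mouse 11 (6 months).

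**Figure D3:**
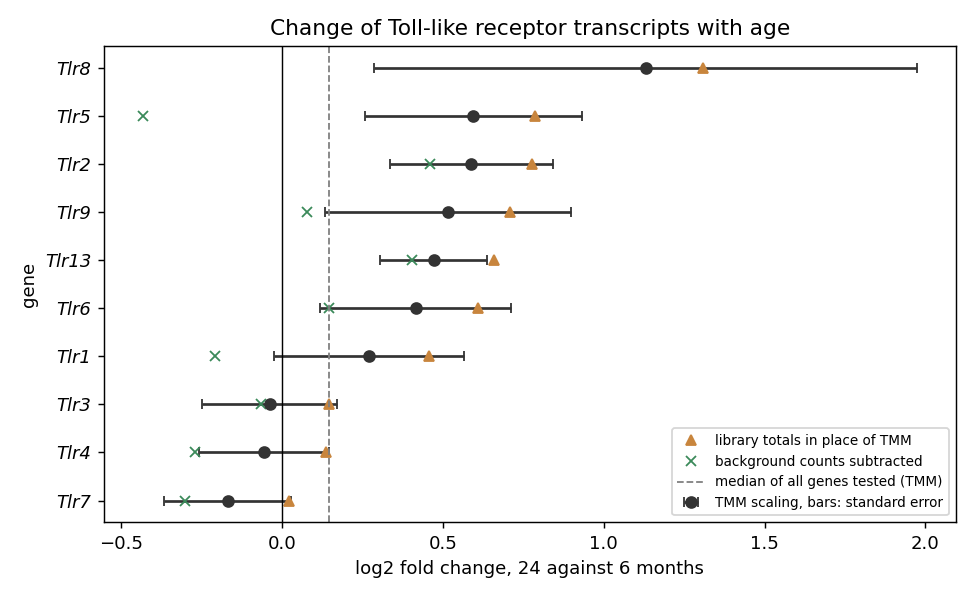
Log2 fold change at 24 against 6 months for the 10 genes with TMM scaling (dots, bars are standard errors), with library totals (triangles) and with the level of sensory receptor genes subtracted (crosses, none for Tlr8). The dashed line is the median of all genes tested, 0.15, and the triangles of Tlr3, Tlr4 and Tlr7 lie on the other side of 0 from their dots.

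The microglia markers give a scale for genes that microglia express. In bulk tissue, a change in the number of cells of a type and a change in RNA per cell cannot be told apart. The summed TPM of 10 microglia markers was 636.1 to 648.2 at 6 months and 687.0 to 721.6 at 24 months. All 10 were detected above 1 TPM. Of the 10, Tmem119 was called higher (log2 fold change 0.34, adjusted p = 0.0683) and Csf1r, the receptor for a microglial growth factor, lower (-0.34, adjusted p = 0.0646) at 10% FDR by edgeR's quasi-likelihood test. Their median log2 fold change was -0.0029. Relative to 1000 TPM of summed microglia markers, Tlr13 was 3.30 ± 0.332 TPM (SD, n = 3) at 6 months and 4.50 ± 0.434 at 24 months. The ages stayed apart on this scale, with a ratio of 1.36. Tlr2 also stayed apart, at 1.59 ± 0.454 and 2.35 ± 0.0561, a ratio of 1.48. Tlr7 was 3.52 ± 0.521 and 3.08 ± 0.457 on that scale, and Tlr4 was 1.99 ± 0.185 and 1.88 ± 0.391. Both overlapped between ages.

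**Figure D4:**
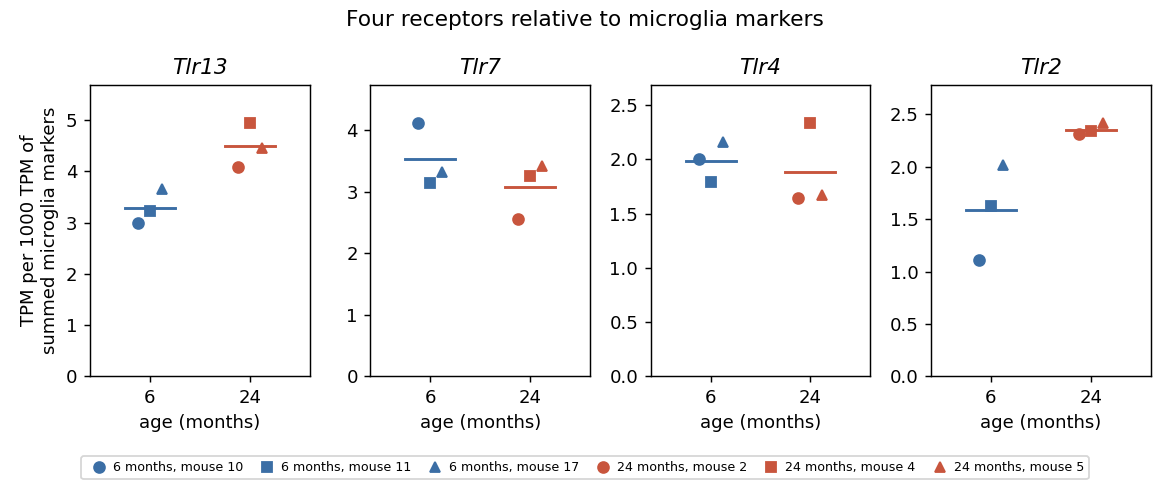
TPM of Tlr13, Tlr7, Tlr4 and Tlr2 per 1000 TPM of summed microglia markers, 1 point per mouse and a bar at the mean of each age, with axes from 0. The 24-month points are all above the 6-month points for Tlr13 and Tlr2 and overlap with them for Tlr7 and Tlr4.

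Markers of other immune cells moved beside these values at low counts. Markers of B cells and plasma cells had a summed TPM of 1.37 to 2.76 at 6 months and 4.40 to 7.49 at 24 months, with no overlap. Of these 7 genes, 4 stayed under 1 TPM in every library. The level of the sensory receptor genes rose 2.96-fold on average between the same ages. Whether the B cell markers differ beyond that level was not tested. Of 7 T cell markers, 2 were called higher at 10% FDR, beside 10.0% of all genes. The T cell sums overlapped, at 97.5 to 112.0 and 91.5 to 104.2 TPM, of which Trbc2 made up most. Of 6 tested markers of neutrophils and monocytes, 3 were called higher, with sums of 3.64 to 7.13 and 3.43 to 9.24 TPM. No marker of perivascular macrophages was called (0 of 5), and their sums were 8.46 to 14.4 and 9.26 to 17.7 TPM. Of 5 markers given for plasmacytoid dendritic cells, 1 was called in each direction, and most of their summed TPM was Pacsin1, which neurons also express. No listed gene of these classes was at 0 in all libraries. The part of these cells in the levels of Tlr9, Tlr2 or Tlr13 was not tested.

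Markers of neurons, glia and other parts of the brain were read as well, and no other tissue was compared. Of 7 markers of cortical excitatory neurons, 2 were called lower at 10% FDR, beside 8.33% of all genes. Their sums did not overlap, at 801.4 to 837.9 TPM at 6 months and 706.2 to 779.6 at 24 months. Interneuron markers had 0 calls of 5 and overlapping sums (1251 to 1256 and 1131 to 1282 TPM). Of 6 astrocyte markers, 1 was called higher, the reactive astrocyte gene Gfap. The astrocyte sums, 2512 to 2648 and 2899 to 3058 TPM, did not overlap between the ages, but most of their TPM was Aldoc (mean 1935). In the fit, 2 of the 6 astrocyte markers were above 0 and 4 below. Their median log2 fold change was -0.12, beside 0.15 over all genes. Oligodendrocyte, endothelial, choroid plexus and meningeal markers had 0 calls, red blood cell markers 1 of 5 lower, and striatal markers 1 of 6 lower. Striatal marker sums were 161.6 to 185.2 TPM at 6 months and 124.6 to 175.0 at 24 months. Choroid plexus sums were 42.0 to 118.7 and 54.3 to 122.8 TPM, a wide spread between mice.

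The pathway around the receptors was read from 69 genes in 8 lists, of which 68 were tested. At 10% FDR, 5 were called higher (7.35% of those tested, beside 10.0% of all genes) and 13 lower (19.1%, beside 8.33% of all genes). These shares of all genes also stand beside the calls of each list below. None of the 68 passed 1% FDR by the quasi-likelihood test, where 0% of all genes did. At 1% FDR the likelihood ratio test called 6 of them (5.18% of all genes) and DESeq2 called 3 (1.30%). The split at 10% FDR depended on the scaling, with 8 higher and 5 lower under library totals, where 13.5% of all genes were called. It was 2 and 4 with edgeR's filterByExpr (7.51% of genes), and 0 and 0 when mouse 10 or 11 (6 months) or mouse 4 (24 months) was left out. Leaving out mouse 2 (24 months) gave 0 and 2, mouse 17 (6 months) 3 and 6, and mouse 5 (24 months) 6 and 13. The median log2 fold change of the 68 genes was -0.07 with TMM factors and 0.12 with library totals.

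Among 6 co-receptors and ligand transfer proteins, Cd180 was the gene called. Cd180 is a relative of Tlr4 that lacks a signalling domain and is found on B cells and macrophages. Its counts were 55, 42 and 51 at 6 months and 68, 94 and 110 at 24 months, so the ages did not overlap. Its log2 fold change was 0.82 with a standard error of 0.23 (edgeR quasi-likelihood, adjusted p = 0.0637), and it lost the call with the sensory receptor level subtracted. Its partner Ly86 was not called (log2 fold change 0.22), and neither were Cd14 (-0.08) and Ly96 (0.05), which hand lipopolysaccharide to Tlr4. The median of the list was 0.25.

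Of 6 genes for folding and trafficking of the receptors, 2 were called lower. Hsp90b1, the endoplasmic reticulum chaperone on which most Toll-like receptors depend, was 332.8 ± 11.9 TPM at 6 months and 278.9 ± 12.3 at 24 months (SD, n = 3), with a log2 fold change of -0.37. Ap3b1, a subunit of the adaptor complex that sorts cargo to endosome-derived compartments, had a log2 fold change of -0.44. Both calls were lost under library totals, where they kept their direction. Unc93b1, the escort of endosomal receptors, was named for that role after its values were seen. It was 21.8 ± 1.87 and 24.1 ± 1.99 TPM, with a log2 fold change of 0.03 and a standard error of 0.12.

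Among 6 adaptors, Sarm1, a TIR-domain protein better known for axon degeneration, was called lower (log2 fold change -0.33, edgeR adjusted p = 0.0697), and this call too was lost under library totals. Myd88, the adaptor of all members but Tlr3, missed 10% FDR narrowly (-0.41, adjusted p = 0.103), with all 24-month mice below the 6-month mice. Its counts were 217, 219 and 263 and then 167, 199 and 179. Ticam1, the adaptor of Tlr3, overlapped between ages (-0.07, adjusted p = 0.856). Both adaptors were named for their role after their values were seen.

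Of 16 kinases and ubiquitin ligases, 3 were called lower and none higher. They were Peli1, a ubiquitin ligase that acts on Irak kinases (log2 fold change -0.61), and the IkB kinase subunits Chuk (-0.46) and Ikbkb (-0.33). Peli1 was 42.5 ± 5.18 TPM at 6 months and 30.1 ± 2.96 at 24 months (SD, n = 3) and was still called under library totals, while Chuk and Ikbkb were not. The median of the list was -0.09.

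Of 8 transcription factors, the NF-kB subunit Rel was called lower. It was counted 394, 510 and 385 times at 6 months and 277, 246 and 290 times at 24 months, with no overlap. Its log2 fold change was -0.70 with a standard error of 0.14 (edgeR quasi-likelihood, adjusted p = 0.0518), and it was called under library totals as well. The other 7 were not called, and the median of the list was -0.03.

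Of 9 negative regulators, 4 were called lower at 10% FDR with TMM factors, beside 8.33% of all genes. Under library totals 1 was, where 13.5% of all genes were called in either direction. Nfkbia, the inhibitor that holds NF-kB in the cytoplasm and is itself an NF-kB target, was 45.7 ± 4.57 TPM at 6 months and 33.5 ± 3.87 at 24 months (SD, n = 3), with a log2 fold change of -0.56. Tnfaip3, a ubiquitin-editing enzyme that ends NF-kB signalling, had -0.67. Its binding partner Tnip1 had -0.31, and Tollip, which binds Irak1, had -0.40. Nfkbia was called under library totals and with filterByExpr, and the other 3 were called in neither. Tnip1 was also not called by the likelihood ratio test or in DESeq2. The median of the list was -0.31, and it was -0.12 under library totals.

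The induced cytokines and chemokines went the other way on few counts. Of 9 tested, 4 were called higher and none lower at 10% FDR, beside 10.0% and 8.33% of all genes. Il12b was counted 3, 3 and 4 times in the young mice and 15, 15 and 11 times in the old. Ccl3 had 2 counts in each 6-month mouse and 7, 13 and 12 in the 24-month mice. Ccl5 had 4, 1 and 5 counts and then 15, 26 and 8, and Il6 had 2, 7 and 8 and then 31, 14 and 12. For each of the 4, all 24-month mice were above all 6-month mice, as for 20.0% of all genes. Ccl3, at 6 counts over the 6-month mice, passed the minimum of 10 counts only through the 24-month mice. The ratios of scaled counts, with exact 95% intervals for counting error only, were 3.98 (1.96 to 8.91) for Il12b and 5.18 (2.14 to 15.1) for Ccl3. They were 4.76 (2.38 to 10.5) for Ccl5 and 3.25 (1.87 to 5.97) for Il6. With the sensory receptor level subtracted, Il12b and Ccl3 were called and Ccl5 and Il6 were not. With filterByExpr, 3 genes of the list were tested and only Il12b was called. Ccl3 was not called in DESeq2. All 4 calls were lost when mouse 10 or 11 (6 months) or mouse 2 or 4 (24 months) was left out. Few or no genes of any kind were called in those cases. The call of Il6 was also lost without mouse 17 (6 months). Tnf and Il1b, the cytokines most often followed in microglia, were not called, and Ifnb1, at no more than 1 count per mouse, was not tested.

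Of 8 endogenous ligands, proteins of damaged cells or matrix that have been reported to act on Tlr2 or Tlr4, 2 were called lower. Hspd1, a mitochondrial chaperone, was 263.8 ± 27.8 TPM at 6 months and 198.4 ± 6.33 at 24 months (SD, n = 3), with a log2 fold change of -0.52. The matrix protein Tnc was 2.28 ± 0.549 and 1.33 ± 0.347 TPM, with -0.89. Both were called under library totals too.

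**Figure D5:**
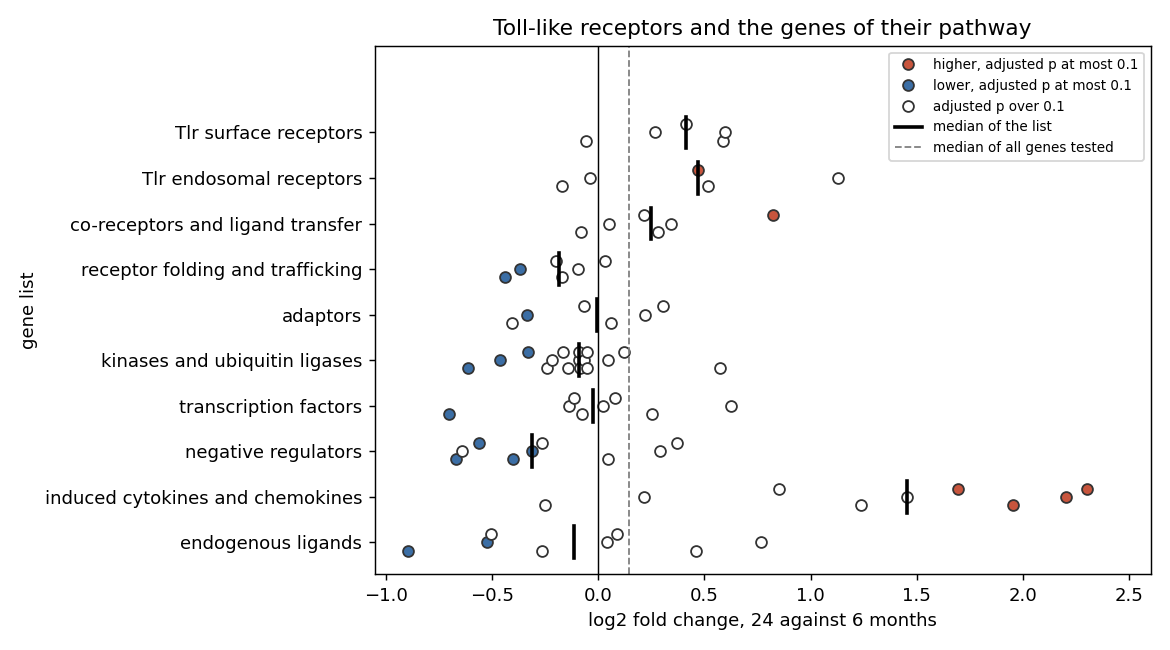
Log2 fold change at 24 against 6 months for each tested gene of the Toll-like receptors and of the 8 pathway lists, with bars at the median of each list and a dashed line at the median of all genes (0.15). Filled points passed 10% FDR, red higher and blue lower, and the negative regulators hold 4 blue points while the induced cytokines hold 4 red ones.

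Some genes had a profile over the 6 libraries close to that of a Toll-like receptor. Likeness was measured as the root mean square difference of z-scored log2 CPM over the 6 libraries, among 15760 genes with a mean of at least 1 CPM. For Tlr3 the nearest were Zfp688 (0.0459), Zfp273 (0.0817) and Cwh43 (0.0901), all lowest in the 24-month mouse 2. For Tlr13 they were Gm42848 (0.0782), Gm16754 (0.0805) and Myh15 (0.121), and for Tlr7 they were Tmf1 (0.0943), Mkx (0.0966) and AW554918 (0.119). With 6 points per gene and this many genes compared, some close profiles arise in any such search.

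Promoter windows of 250 bases before the transcription start (RefSeq, GRCm38.p6) were on hand for 8 of the 10 members, in 10 windows, and Tlr4 and Tlr7 were not among them. They were searched on both strands for 3 motifs of factors in the pathway or in macrophages. The ETS motif GAGGAAG, bound by the macrophage factor PU.1 among others, was found in 3 members, Tlr13, Tlr9 and Tlr1, and in 10.6% of the 32851 windows of all genes. The parts of these 3 windows that lie before the first exon of GENCODE vM21 are shown, since they hold the 1 member called at 10% FDR and 2 that were not. They are at chrX:106143025-106143203 (plus strand) for Tlr13, chr9:106222348-106222597 (plus strand) for Tlr9 and chr5:64933564-64933808 (minus strand) for Tlr1, 5′ to 3′, with the motif in capitals.
Tlr13: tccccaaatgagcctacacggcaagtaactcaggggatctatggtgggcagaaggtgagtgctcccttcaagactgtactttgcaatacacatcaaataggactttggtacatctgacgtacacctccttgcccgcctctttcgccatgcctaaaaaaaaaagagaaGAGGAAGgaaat
Tlr9: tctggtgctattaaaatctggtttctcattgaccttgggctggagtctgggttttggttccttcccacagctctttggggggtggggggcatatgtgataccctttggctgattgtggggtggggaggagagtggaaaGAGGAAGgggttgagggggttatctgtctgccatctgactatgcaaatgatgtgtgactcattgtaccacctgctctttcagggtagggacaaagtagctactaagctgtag
Tlr1: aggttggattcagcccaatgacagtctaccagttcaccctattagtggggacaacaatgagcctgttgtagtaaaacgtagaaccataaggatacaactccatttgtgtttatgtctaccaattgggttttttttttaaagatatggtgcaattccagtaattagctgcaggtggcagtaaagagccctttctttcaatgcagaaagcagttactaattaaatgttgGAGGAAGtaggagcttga
The NF-kB motif (GGGA, any base, TTTCC) was found in Tlr3 (0.356% of all windows), where the match lay wholly within exons of the gene in GENCODE vM21. The interferon response motif (TTTC, any 2 bases, TTTC) was found in Tlr6 (2.98% of all windows), as 2 overlapping matches. The windows of Tlr2, Tlr5 and Tlr8 held none of the 3. A match of letters is a description and no evidence of binding.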

How the data were processed

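RNA-seq of the cortex of 6 mice was read from the deposited files. The authors trimmed reads (FastQC 0.11.8, Trim Galore 0.6.4), mapped them to GRCm38 (GENCODE vM23) with STAR 2.7.3a and counted them on exons with featureCounts (Subread 2.0.0), with a minimum mapping quality. The deposited counts were whole numbers, although the stated options split reads with several positions. The authors computed the deposited TPM from counts and exonic length.

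Counts were tested with edgeR 4.0.16 (R 4.3.3): TMM scaling, a minimum of 10 counts over the 6 libraries, the quasi-likelihood fit without covariates, and Benjamini-Hochberg adjustment over 32905 genes, at the 1% FDR of the study and at 10%. The study names edgeR but not its test. The members, gene lists and rules were chosen with earlier results of these data known. Every member was named. Of each pathway list the genes past 10% FDR were named, and for each member with a mean of at least 50 counts the 3 nearest profiles (pseudocount 0.1 CPM). Other pathway and marker genes named were chosen for their role or call after their values were seen. A few results, the nearest profiles of Tlr4 among them, are not reported here. The mice are separate animals, and 3 against 3 allow no permutation p under 0.1 (two-sided). Alternatives were other tests (likelihood ratio, DESeq2 1.42.0), scalings, filters, subtraction of the sensory receptor level, and each mouse left out. On simulated counts for this comparison over 31674 genes, the test recovered 76.1% of 88 genes changed by a log2 fold of 1 at 10% FDR and 48.9% at 1%. At a log2 fold of 2 it recovered 95.5% and 91.1% of 112 genes. At 10% FDR, 31 unchanged genes were called as well. The changed genes were drawn only from those over a minimum mean CPM, which Tlr5 and Tlr8 do not reach. A log2 fold of 1 is also above the fitted value of every member but Tlr8. These rates thus do not describe the recovery of the members. Python 3.11.15 with pandas 2.3.3 did the rest. Protein sequences were not analysed here.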

Additional observations from a re-analysis of the deposited data

How the results depend on the processing

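The count of members at 1% FDR was 0 in all 13 alternatives. The count at 10% FDR, 1 with TMM factors, was 2 with library totals (Tlr2 and Tlr13), 0 without a filter on low counts, 0 with the sensory receptor level subtracted, 0 in DESeq2 and 0 to 0 with each mouse left out. The likelihood ratio test, DESeq2 size factors in edgeR and filterByExpr kept it within 1.5 times. Members whose ages did not overlap, 2 with TMM factors, numbered 4 with library totals, 4 with filterByExpr and 2 to 5 with a mouse left out, the highest without the 24-month mouse 4 or 5. With TMM factors, 36.3% of all genes did not overlap, in either direction. That share was not computed for the alternatives, and it is easier for ages to lie apart with fewer mice. The higher counts are therefore no result about the members. The ratio of the summed TPM of the 10 genes at 24 to 6 months was 1.18, and 1.12 to 1.29 with a mouse left out. In scaled CPM per exonic kb the ratio was 1.09. Of 128 fold changes of members under the alternatives, 116 kept their sign and 12 turned. Tlr1 turned to -0.21 and Tlr5 to -0.43 with the sensory receptor level subtracted. Library totals turned Tlr3 to 0.15, Tlr4 to 0.14 and Tlr7 to 0.021, and filterByExpr turned Tlr3 to 0.070 and Tlr4 to 0.058. With 1 mouse left out, Tlr3 was between -0.22 and 0.21, above 0 with mouse 10 (6 months, 0.0048) or mouse 2 (24 months) left out. Tlr4 was between -0.17 and 0.040, above 0 with mouse 17 (6 months, 0.0034), mouse 2 or mouse 5 (24 months, 0.012) left out. None of these turned values passed 10% FDR, and the cause was not tested. Tlr8 had no value with filterByExpr or with the subtraction, and DESeq2 gave it no adjusted p. No paired analysis was possible because the mouse numbers in the labels differ between the ages. Members under about 50 counts per library have wide errors, and small differences there were not detectable at this depth.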

Other observations

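Genes of 2 more mouse receptors of the family were measured outside the 10. Tlr12, which pairs with Tlr11 to bind profilin of protozoa, was counted 28, 19 and 26 times in the 6-month mice 10, 11 and 17 and 30, 33 and 38 times in the 24-month mice 2, 4 and 5. Tlr11 was counted 3, 3 and 0 times and then 8, 10 and 3 times. Both sets of values lay in the range of the low members.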
